A study of Mus musculus with 12 samples.

Results

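A set of 10 genes by which astrocytes are commonly recognised in the mouse brain was followed through the hippocampus of male mice with and without the miR379-410 microRNA cluster. They are Gfap, Aqp4, Slc1a2, Slc1a3, Aldh1l1, Gja1, Gjb6, Sox9, Aldoc and S100b. They were chosen by name as astrocyte markers, and all 10 were among the 33250 genes of the deposited table. The cKO group held 6 animals labelled as a conditional knockout of the cluster by Cre recombinase in Emx1-positive cells, and the WT group held 6 wild-type animals. Each animal gave 1 library of polyadenylated RNA from bulk hippocampal tissue. The study asked whether loss of the cluster in glutamatergic hippocampal neurons changes gene expression. The labels do not state the age or strain of the animals, or whether WT animals carried Cre or the conditional allele.

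Astrocytes clear glutamate and potassium from the space around synapses, couple to each other through gap junctions, exchange water at their endfeet on blood vessels and supply neurons with metabolic substrates. Emx1 is a homeobox gene of the dorsal forebrain, and lineage tracing in mice has placed hippocampal excitatory neurons and astrocytes among the descendants of Emx1-positive progenitors. The share of hippocampal astrocytes that carry the deletion was not measured here. MicroRNAs lower the output of messenger RNAs mostly by pairing their seed, the bases near the 5′ end, with the 3′ untranslated region (3′ UTR).

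Library totals lay between 42360624 and 51095816 counts, and each member had at least 1248 counts in every library. Some libraries stood apart. At B830012L14Rik, a non-coding transcript next to the cluster, the library labelled cKO 1 read 0.788 CPM (the count scaled to a common library total with TMM factors). The other 5 cKO libraries read 17.4 to 25.8 CPM, and the WT libraries 0.310 to 0.865 CPM. The library labelled cKO 1 thus lay in the WT range there, and whether that animal carried the deletion was not tested, so directions given for cKO include a library in doubt. Mirg, a host transcript within the cluster, did not separate the genotypes, with 23.6 to 46.4 CPM in cKO and 28.4 to 34.1 CPM in WT (log2 fold change 0.15 ± 0.12, SE; edgeR adjusted p = 0.738). Its low end was again the library labelled cKO 1, below every WT library. The other 5 cKO libraries read 32.6 to 46.4 CPM and still overlapped WT. Mirg does not check the labels, because the deleted bases are not given and cells without Cre keep the locus. In 3 libraries little choroid plexus RNA was present: the summed level of 10 choroid plexus markers was 59.5 CPM in cKO 4, 90.9 CPM in WT 2 and 582 CPM in WT 3, against 2453 to 8364 CPM in the other 9. Pyramidal neuron markers of the hippocampus summed to 2098 to 2389 CPM in cKO and 2161 to 2468 CPM in WT. Results for the members and gene lists are therefore also given without cKO 1 and without cKO 4, WT 2 and WT 3 where their call or majority direction differs. Single genes outside the members are given over all 12 libraries.

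Per kilobase of annotated exon, the glutamate transporter Slc1a2 and the glycolytic enzyme Aldoc were the most abundant of the 10 genes and the transcription factor Sox9 was the least. Slc1a2 averaged 203 ± 13.9 CPM per kilobase in cKO and 224 ± 13.4 in WT (SD, n = 6 each). Aldoc averaged 214 ± 18.3 in cKO and 208 ± 9.37 in WT on the same scale. The ranges of these 2 genes overlapped, and Slc1a2 was above Aldoc in 7 of 12 libraries. Next came Gfap, at 71.8 ± 6.23 CPM per kilobase in cKO and 65.1 ± 3.03 in WT, and Slc1a3, at 62.0 ± 3.90 in cKO and 64.1 ± 3.89 in WT, and their ranges overlapped too. S100b followed alone, at 48.1 ± 3.54 CPM per kilobase in cKO and 47.9 ± 2.65 in WT. Aqp4, Gja1 and Gjb6 lay between 13.5 and 20.2 CPM per kilobase in all libraries, each overlapping its neighbour. Aldh1l1, with 9.89 ± 0.523 CPM per kilobase in cKO and 9.86 ± 0.653 in WT, and Sox9, with 8.76 ± 1.04 in cKO and 8.36 ± 1.08 in WT, overlapped in range although Aldh1l1 was the higher of the 2 in all 12 libraries. The order depends on the length assigned to a gene: by the longest annotated transcript, 4 of 10 genes kept their place. Gja1 has 10.3 kilobases of exon over all its transcripts but a longest transcript of 3.89 kilobases, and with that length it stood above Aqp4.

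**Figure D1:**
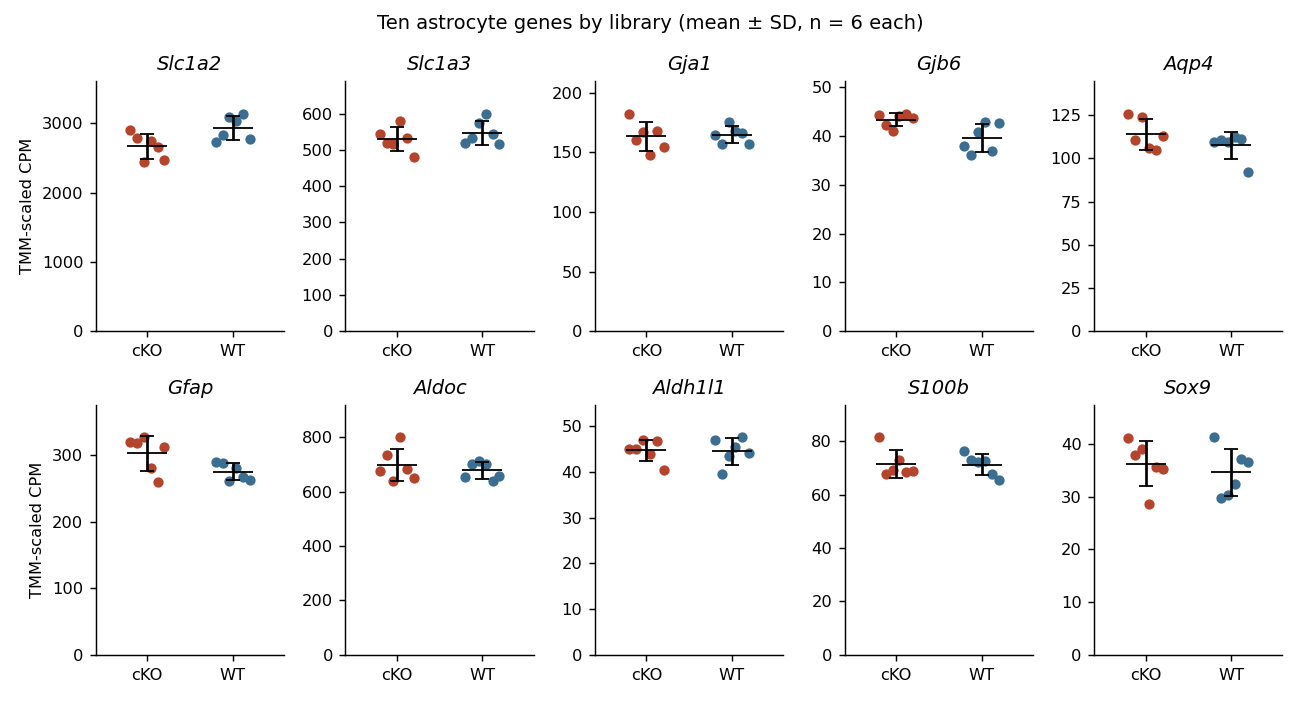
TMM-scaled CPM of each of the 10 astrocyte genes, 1 point per animal, cKO left and WT right, each axis starting at 0. Horizontal lines give the mean and bars the SD of 6 animals. The groups overlap in every panel. Gjb6 and Gfap each have 4 cKO animals above every WT animal, and Slc1a2 has 3 cKO animals below every WT animal.

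No genotype difference in the 10 astrocyte genes passed the test. No member passed an adjusted p of 0.05 in edgeR (quasi-likelihood test, Benjamini-Hochberg over 19325 genes), where 0.0103% of all genes tested did, and the smallest adjusted p among members was 0.407. DESeq2 and limma-voom also called 0 members. Without adjustment 3 members had p below 0.05 (Gjb6, Gfap and Slc1a2), and 9.54% of all genes did. Of these 3, Gjb6 and Gfap were above 0, as were 3.2% of all genes tested at that p, and Slc1a2 was below 0, as were 6.34%. In no member did all cKO libraries lie above or all lie below the WT libraries, as they did in 0.181% and 0.223% of genes tested. Estimates were above 0 for 7 members and below 0 for 3, and 53.4% of all genes tested were above 0. The median log2 fold change of the members was 0.02, and that of all genes tested was 0.01 (interquartile range -0.06 to 0.07). Without the library labelled cKO 1, 5 members were above 0 and 5 below. In that setting 2 members had an unadjusted edgeR p below 0.05, as did 2381 of 19457 genes tested. Without cKO 4, WT 2 and WT 3, 1 member had such a p, as did 1457 of 19591 genes tested. In bulk tissue, fewer astrocytes and less RNA per astrocyte cannot be told apart. Each p-value reflects variation among the 12 animals.

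**Figure D2:**
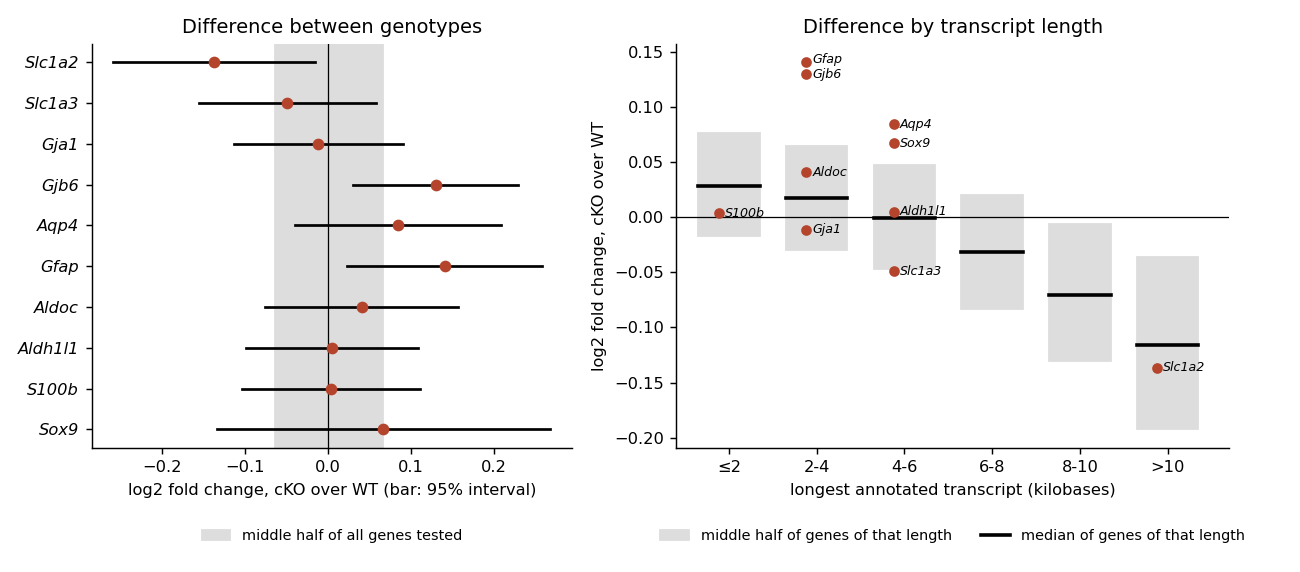
Left, log2 fold change (cKO over WT) of each astrocyte gene with its 95% interval from edgeR. Grey marks the interquartile range of all genes tested, -0.06 to 0.07. Right, the same log2 fold changes by the longest annotated transcript, with the median (line) and interquartile range (grey) of all genes of that length at 1 CPM or more. The median of all genes runs downwards with length, and Slc1a2 lies inside the range of genes over 10 kilobases.

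The glutamate transporters of astrocytes are Slc1a2 (GLT-1, chromosome 2 from 102658659 to 102790784, GRCm38), which carries most glutamate uptake in the forebrain, and Slc1a3 (GLAST, chromosome 15 from 8634124 to 8710764). Slc1a2 ranged from 2447 to 2907 CPM with a median of 2703 CPM in cKO, against 2734 to 3141 CPM with a median of 2936 CPM in WT. The 3 lowest cKO libraries were below every WT library, the 3 highest WT libraries were above every cKO library, and the rest overlapped. Its log2 fold change was -0.14 ± 0.06 (SE, 95% interval -0.26 to -0.02), with an unadjusted p of 0.0299 and an edgeR adjusted p of 0.474. Without cKO 1 the estimate was -0.17 ± 0.06 and the edgeR adjusted p was 0.224. Slc1a3 ranged from 480.3 to 581 CPM (median 527) in cKO and from 517 to 600.3 CPM (median 538) in WT, with a log2 fold change of -0.05 ± 0.05 and an edgeR adjusted p of 0.809. The ratio of Slc1a2 to Slc1a3 in CPM was 5.05 ± 0.282 in cKO and 5.37 ± 0.232 in WT. Of all counts in the 10 genes, Slc1a2 took 57.1 ± 1.13% in cKO (55.4 to 58.54%) and 59.9 ± 1.28% in WT (58.51 to 62.1%), and cKO 1 was the only cKO library above the lowest WT library.

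Transcript length moved with the estimates across the whole transcriptome, and Slc1a2 is a long transcript. Among genes at 1 CPM or more, those whose longest transcript was 2000 bases or less had a median log2 fold change of 0.03. The 418 genes over 10000 bases had a median of -0.12 with an interquartile range of -0.19 to -0.04. Of those long genes 82.5% were below 0. The longest transcript of Slc1a2 has 11595 bases, and its log2 fold change of -0.14 lay inside that interquartile range. Gjb6 (2105 bases, 0.13) and Gfap (2648 bases, 0.14) lay above the interquartile range of genes of 2000 to 4000 bases, -0.03 to 0.07. The part of transcript length in the Slc1a2 value was not tested.

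The gap junction genes gave estimates on either side of 0. Gja1 (connexin 43, chromosome 10 from 56377330 to 56402513) ranged from 148 to 182 CPM (median 164) in cKO and from 157 to 176 CPM (median 165) in WT, a log2 fold change of -0.01 ± 0.05 with an edgeR adjusted p of 0.964. Gjb6 (connexin 30, chromosome 14 from 57123303 to 57133611) ranged from 41.1 to 44.5 CPM with a median of 43.8 CPM in cKO, against 36.1 to 42.9 CPM with a median of 39.4 CPM in WT. For Gjb6, 4 cKO libraries were above every WT library and 4 WT libraries were below every cKO library. Its log2 fold change was 0.13 ± 0.05 (95% interval 0.03 to 0.23), with the smallest unadjusted p of the 10 genes, 0.0140, and an edgeR adjusted p of 0.407. The coefficient of variation of Gjb6 was 3.09% in cKO and 7.44% in WT. The ratio of Gja1 to Gjb6 in CPM was 3.78 ± 0.299 in cKO and 4.18 ± 0.310 in WT.

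Aqp4, the water channel of astrocyte endfeet (chromosome 18 from 15389496 to 15410982), ranged from 105 to 126 CPM (median 112) in cKO and from 92.1 to 112 CPM (median 110.1) in WT. For Aqp4, 3 cKO libraries were above every WT library, and the low end of WT was the single library WT 6. Its log2 fold change was 0.08 ± 0.06 (95% interval -0.04 to 0.21; edgeR adjusted p = 0.688). Gfap, the intermediate filament of astrocytes and a marker that rises in reactive gliosis, lies on chromosome 11 from 102887336 to 102900912. It ranged from 260.2 to 327 CPM with a median of 315 CPM in cKO, against 262 to 289 CPM with a median of 273 CPM in WT. For Gfap, 4 cKO libraries were above every WT library and cKO 5 was below every WT library. The log2 fold change of Gfap was 0.14 ± 0.05 (95% interval 0.02 to 0.26), with an unadjusted p of 0.0222 and an edgeR adjusted p of 0.451. Without cKO 1 it was 0.12 ± 0.06 with an edgeR adjusted p of 0.464.

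The metabolic and general markers gave estimates nearer to 0. Aldoc (aldolase C, chromosome 11 from 78322968 to 78327781) ranged from 641 to 799 CPM (median 679) in cKO and from 639 to 713 CPM (median 679.9) in WT, with a log2 fold change of 0.04 ± 0.05 and an edgeR adjusted p of 0.866. Aldh1l1, a folate enzyme used as a marker of nearly all astrocytes (chromosome 6 from 90486427 to 90600203), ranged from 40.4 to 46.9 CPM (median 45.1) in cKO and from 39.4 to 47.5 CPM (median 44.8) in WT. Its 95% interval for the log2 fold change ran from -0.10 to 0.11. S100b, a calcium-binding protein of astrocytes and some oligodendrocyte lineage cells (chromosome 10 from 76253853 to 76261159), ranged from 67.6 to 81.4 CPM (median 68.9) in cKO and from 65.4 to 76.4 CPM (median 72.2) in WT, with an interval of -0.10 to 0.11. Sox9, a transcription factor of glial fate (chromosome 11 from 112782224 to 112787760), ranged from 28.6 to 41.0 CPM (median 36.8) in cKO and from 29.8 to 41.2 CPM (median 34.5) in WT. Its log2 fold change of 0.07 ± 0.09 had the widest interval of the 10 genes, -0.13 to 0.27, and its coefficient of variation was 11.9% in cKO and 12.97% in WT. The directions of Aldh1l1, S100b, Gja1 and Aldoc turned when some single libraries were left out. Gfap, Aqp4, Slc1a2, Aldh1l1 and S100b overlap genes annotated on the opposite strand, and Slc1a3 and Aldh1l1 overlap genes on the same strand. Overlap was taken over whole gene spans, and whether exons are shared was not tested. Since the strand setting is not given, reads of opposite strands in any shared exon cannot be told apart.

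Because the deleted genes are microRNAs, the 3′ UTRs of the 10 genes were searched for the cluster's seeds. The cluster, on chromosome 12 from 109709060 to 109743795 (GRCm38), holds 38 hairpins and 71 mature miRNAs with 64 distinct seeds in RefSeq (GRCm38.p6). A match was the reverse complement of bases 2 to 8 on the strand of the transcript, and matches that overlapped each other were all counted. Every member had a match, 122 in all, and so did 89.3% of 15274 genes with an annotated 3′ UTR of at least 50 bases. Slc1a2 held 56 of them in a 3′ UTR of 9250 bases, or 6.05 per kilobase, where the median over all genes was 3.97 per kilobase (interquartile range 2.65 to 5.31). S100b had 7.33 and Aldh1l1 5.55 matches per kilobase, and Sox9 had 1.78. A match is a description of sequence and not a site shown to be used.

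The seed of miR-409-3p matched the most members, namely Aqp4, Slc1a3, Aldh1l1, Gjb6 and Aldoc, and 10.4% of all 3′ UTRs hold its match CAACATT. The miRNA is printed with its seed in capitals, and the stretches of 4 of the 5 members with the matching bases in capitals, to show that the same 7 bases stand in different surroundings.
miR-409-3p: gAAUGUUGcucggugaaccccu
Slc1a3 3′ UTR: agtatggcCAACATTacaaaagg
Aldh1l1 3′ UTR: ggtttaccCAACATTctcttctt
Gjb6 3′ UTR: tttgtagaCAACATTgatctgac
Aldoc 3′ UTR: atctgtctCAACATTaactaaaa
In Slc1a3 and Aldoc an A follows the match, the form known as an 8mer.

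The seed of miR-654-3p matched 4 members through CAGACAT, which 14.2% of all 3′ UTRs hold.
miR-654-3p: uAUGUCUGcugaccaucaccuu
Slc1a2 3′ UTR: ccagcattCAGACATcagtaaat
Gjb6 3′ UTR: gaacagtgCAGACATgaatatga
Aldoc 3′ UTR: tgaggtatCAGACATtagggaca
S100b 3′ UTR: ttctgcaaCAGACATgagggtca

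The seed of miR-300-5p matched both glutamate transporters, with CTCTTCA in 16.7% of all 3′ UTRs, and is shown because Slc1a2 held 3 copies and Slc1a3 held 2.
miR-300-5p: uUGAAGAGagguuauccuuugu
Slc1a2 3′ UTR, position 5402: gatttcagCTCTTCAaatttgag
Slc1a2 3′ UTR, position 6622: tgtatctaCTCTTCAaaaatcat
Slc1a2 3′ UTR, position 8147: tccatctcCTCTTCAtactcaaa
Slc1a3 3′ UTR, position 889: aagacagtCTCTTCAattagatg
Slc1a3 3′ UTR, position 1097: aacacttcCTCTTCAgtccctaa
Beside these sequences, the log2 fold changes of the 5 members with the miR-409-3p match were 0.08 for Aqp4, -0.05 for Slc1a3, 0.01 for Aldh1l1, 0.13 for Gjb6 and 0.04 for Aldoc, and none passed. Slc1a2, with the longest 3′ UTR and the most matches of the 10 genes, had a log2 fold change of -0.14 that did not pass.

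Correlations among the 10 genes across animals were mixed in sign. After the genotype mean was removed, the 45 pairs had a median Pearson r of 0.18 over 12 libraries, with 30 pairs above 0 and 15 below. Among all pairs of 15545 genes with a mean of at least 1 CPM, the median r was -0.00 and 32.9% of pairs reached 0.18. No pair passed an adjusted p of 0.05 over the 45 pairs (within-genotype permutation), and 4 had an unadjusted p below 0.05. Without cKO 1 the median r of the pairs was 0.06, and without cKO 4, WT 2 and WT 3 it was 0.28.

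The highest r of the 45 was that of the glutamate transporters. Slc1a2 and Slc1a3 had r = 0.69 (permutation p = 0.0225, adjusted p = 0.313; Spearman rho = 0.67, permutation p = 0.0262), with 0.64 within cKO and 0.75 within WT. The pair gave r = 0.62 without the 2 libraries farthest from the Slc1a2 median. Gfap and Aqp4, the filament and the endfoot channel, had r = 0.66 (permutation p = 0.0279, adjusted p = 0.313; rho = 0.68, p = 0.0321), with 0.80 within cKO, 0.47 within WT and 0.54 without the 2 farthest libraries. Slc1a3 and Aldoc had r = 0.67 (permutation p = 0.0242, adjusted p = 0.313; rho = 0.56, p = 0.0723), with 0.74 within cKO, 0.62 within WT and 0.43 without the 2 farthest. The lowest was that of Sox9 and Aldoc, with r = -0.75 (permutation p = 0.00688, adjusted p = 0.310; rho = -0.69, p = 0.0174), -0.73 within cKO and -0.89 within WT. Without the 2 libraries farthest from the Sox9 median that r was -0.52, and without cKO 4, WT 2 and WT 3 it was -0.32, so the size of that value rests on those libraries.

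**Figure D3:**
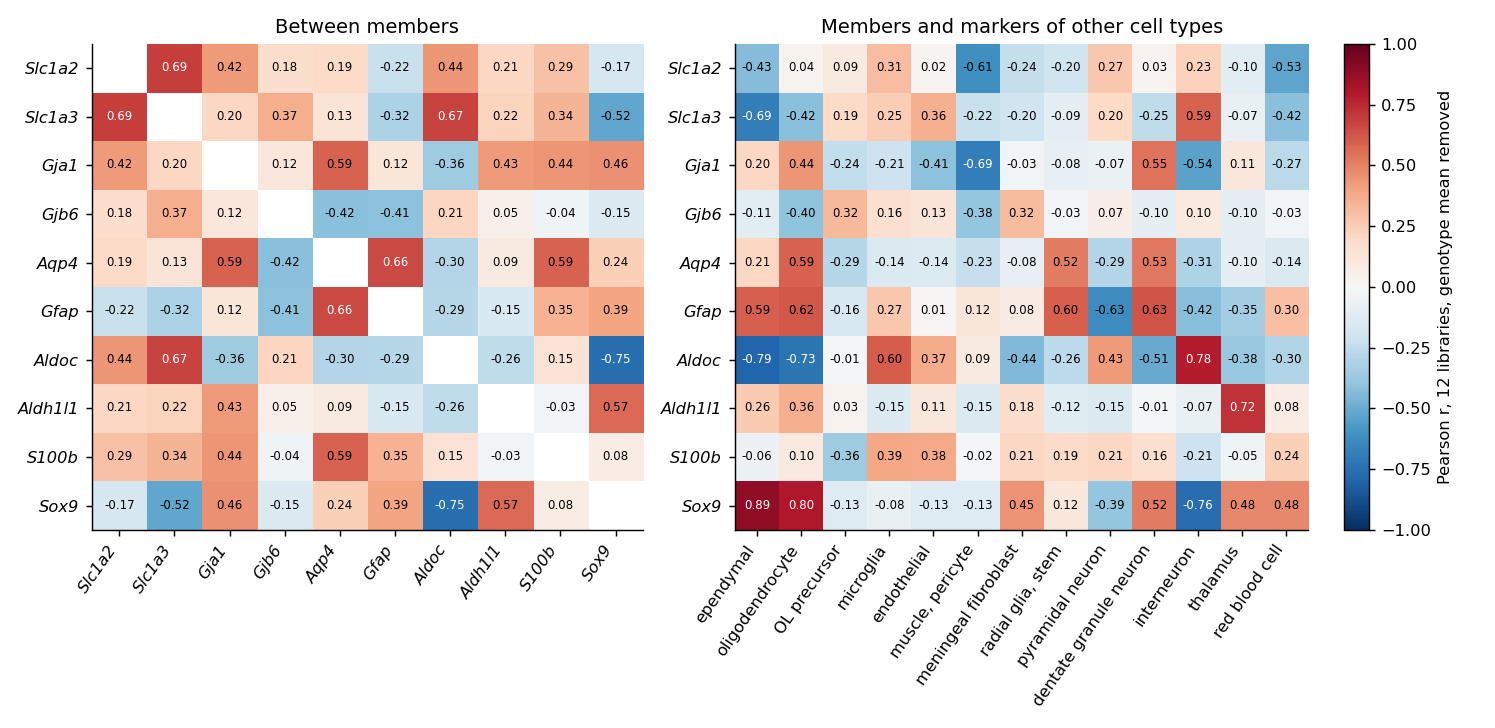
Pearson r over 12 libraries after the genotype mean was removed, between the 10 astrocyte genes (left) and between each gene and the mean of markers of 13 other cell types or tissues (right). Red is positive and blue negative. Slc1a2 with Slc1a3 reads 0.69 and Sox9 with Aldoc -0.75. Sox9 and Aldoc have opposite signs against ependymal markers (0.89 and -0.79). No relation passed after adjustment.

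As planned, the mean level of the 10 genes was set against 14 lists of markers of other cell types or tissues. With the genotype mean removed, 0 of the 14 lists had an unadjusted permutation p below 0.05, and the smallest adjusted p was 0.809. Pearson r ran from -0.46 with smooth muscle and pericyte markers to 0.47 with oligodendrocyte markers. After the data were seen, single members such as Sox9 and Aldoc were also set beside these markers, among them those of the tissue that lines the ventricles. Sox9 was at 41.0, 37.9, 39.0, 28.6, 35.7 and 35.3 CPM in cKO 1 to 6 and at 41.2, 29.8, 30.3, 32.4, 37.2 and 36.6 CPM in WT 1 to 6. Its 3 lowest libraries, cKO 4, WT 2 and WT 3, are the 3 with little choroid plexus RNA. Aldoc was at 674, 735, 641, 799, 684 and 652 CPM in cKO 1 to 6 and at 655, 701, 713, 701, 639 and 659 CPM in WT 1 to 6. Its highest library was cKO 4. The 8 ependymal markers summed to 22.3 to 62.0 CPM in cKO and 21.97 to 51.7 CPM in WT, and none was at 0 throughout.

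Against the ependymal markers Sox9 had r = 0.89 (permutation p = 0.00083, adjusted p = 0.0581 over 140 relations; rho = 0.84, p = 0.00238), with 0.86 within cKO, 0.93 within WT and 0.77 without the 2 farthest libraries. Over the 9 libraries other than cKO 4, WT 2 and WT 3 it was 0.63 (permutation p = 0.0955). Against oligodendrocyte markers Sox9 had r = 0.80 (permutation p = 0.00196, adjusted p = 0.0843; rho = 0.83, p = 0.00189), with 0.90 within cKO, 0.70 within WT, 0.73 without the 2 farthest and 0.59 over the 9 libraries (permutation p = 0.122). Aldoc had r = -0.79 with ependymal markers (permutation p = 0.00549, adjusted p = 0.147; rho = -0.76, p = 0.00691), with -0.81 within cKO, -0.79 within WT, -0.53 without the 2 farthest libraries and -0.40 over the 9 libraries (permutation p = 0.301). With oligodendrocyte markers Aldoc had r = -0.73 (permutation p = 0.0162, adjusted p = 0.243; rho = -0.70, p = 0.0258), with -0.68 within cKO, -0.87 within WT, -0.51 without the 2 farthest and -0.40 over the 9 libraries. Interneuron markers also gave opposite signs for Sox9 and Aldoc. With interneuron markers Sox9 had r = -0.76 (permutation p = 0.00631, adjusted p = 0.147; rho = -0.76, p = 0.0088), with -0.91 within cKO, -0.61 within WT, -0.53 without the 2 farthest and -0.71 over the 9 libraries. With the same markers Aldoc had r = 0.78 (permutation p = 0.0106, adjusted p = 0.212; rho = 0.76, p = 0.0140), with 0.83 within cKO, 0.62 within WT, 0.71 without the 2 farthest and 0.56 over the 9 libraries. Over 12 libraries Sox9 had r = 0.90 with choroid plexus markers (permutation p = 0.00038, adjusted p = 0.0532). That r was 0.89 within cKO, 0.90 within WT and 0.82 without the 2 farthest libraries. Aldoc had r = -0.79 with choroid plexus markers (permutation p = 0.00241, adjusted p = 0.0843), with -0.88 within cKO, -0.73 within WT and -0.63 without the 2 farthest. These markers were far lower in cKO 4, WT 2 and WT 3, so r is also given over the other 9 libraries. There Sox9 had r = 0.70 (permutation p = 0.098; rho = 0.53, p = 0.232) and Aldoc r = -0.53 (permutation p = 0.1003; rho = -0.58, p = 0.0717), each with an adjusted p of 0.857 over the 140 relations. Of the 140 relations between a member and a marker list, 0 passed after adjustment and 12 had an unadjusted p below 0.05. Among the 12 were Slc1a2 (r = -0.61, permutation p = 0.0459) and Gja1 (r = -0.69, permutation p = 0.0143) with smooth muscle and pericyte markers. Also among them were Aldh1l1 with thalamus markers (r = 0.72, permutation p = 0.0174) and Slc1a3 with ependymal markers (r = -0.69, permutation p = 0.0227). Over the 9 libraries these r were -0.88, -0.33, 0.65 and -0.65, in that order. The part of these other cell types in the values of the members was not tested.

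**Figure D4:**
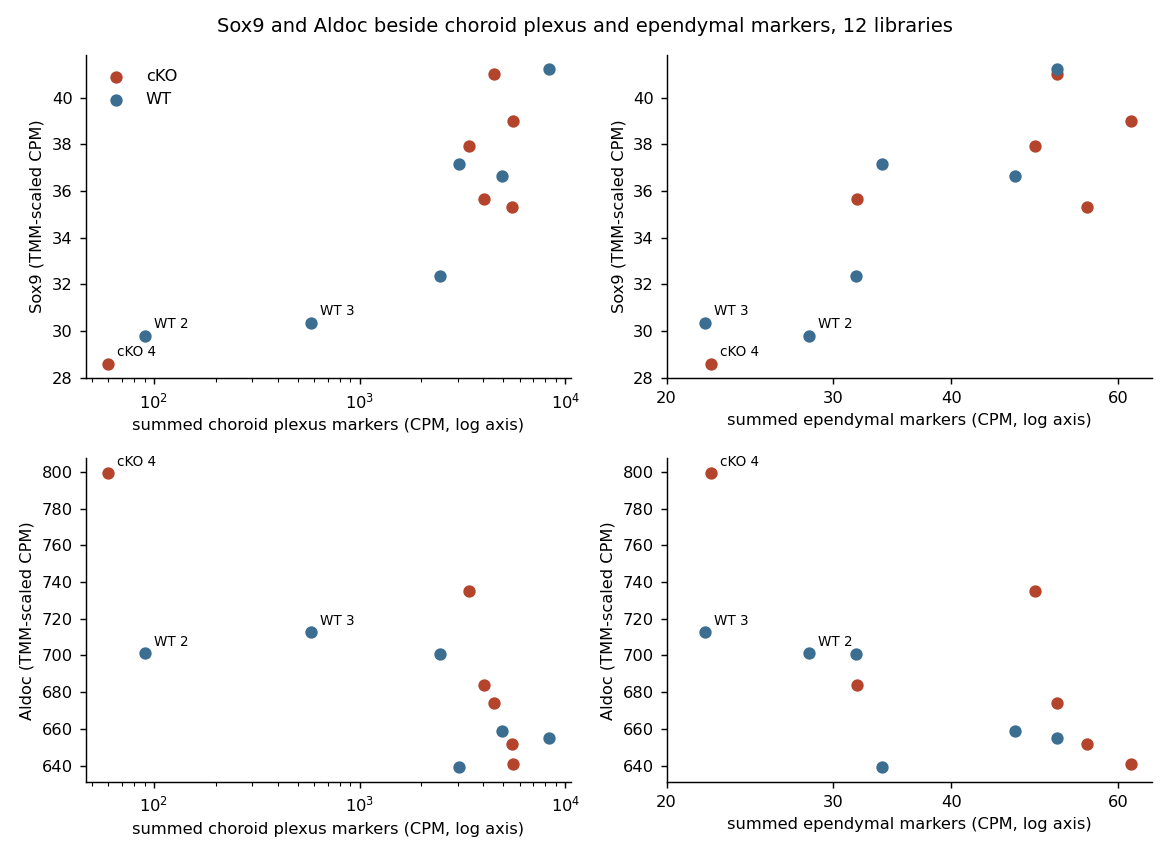
Sox9 (top) and Aldoc (bottom) in TMM-scaled CPM against the summed CPM of choroid plexus markers (left) and ependymal markers (right), both horizontal axes logarithmic, 1 point per library, cKO red and WT blue. The vertical axes do not start at 0. The labelled libraries cKO 4, WT 2 and WT 3 hold the 3 lowest Sox9 values, 28.6 to 30.3 CPM.

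Genes outside the list that followed the mean profile of the 10 most closely were Asph (r = 0.94), Lin9 (0.91), Lrrc58 (0.90), Dio2 (0.89), Lacc1 (0.87), Fads2 (0.87), Zfp410 (0.86), Agmo (0.86), Cldn10 (0.85) and Nhlh1 (0.83). Dio2, the deiodinase that activates thyroid hormone, and Cldn10, a claudin, are themselves known from astrocytes. The closest gene to Gfap was the ferritin heavy chain gene Fth1 (r = 0.96), and the closest to Slc1a3 was the junctional adhesion molecule gene Jam2 (0.95). Sox9 was closest to P3h4 and Slc12a2, both at r = 0.98. Slc12a2, the sodium-potassium-chloride cotransporter NKCC1, is strongly expressed in choroid plexus. The closest gene to Aldoc was Eefsec (0.95), to Aqp4 Efcab7 (0.94), to Slc1a2 Dctn4 (0.91), to Gja1 Lin9 (0.91), to S100b Prdx6 (0.89), to Aldh1l1 Ablim1 (0.87) and to Gjb6 Pcdhga11 (0.81). These values were picked as the highest among all genes over 12 libraries that share their tissue pieces, and are a description.

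In the wider astrocyte programme, 0 of 157 tested genes in 11 lists passed the same edgeR threshold, and the smallest adjusted p was 0.343. Unadjusted p was below 0.05 for 11 of them, where 9.54% of all genes tested had such a p. Of 36 other astrocyte genes 22 were above 0 and 14 below, with a median log2 fold change of 0.01, and 53.4% of all genes tested were above 0. That balance turned without cKO 1, with 14 above and 22 below (median -0.01), and without cKO 4, WT 2 and WT 3, with 17 above and 19 below (median -0.00). The lowest p among them was that of Lcat, the enzyme that esterifies cholesterol on lipoproteins, at 26.9 ± 1.11 CPM in cKO and 24.7 ± 1.42 CPM in WT (log2 fold change 0.12 ± 0.04; edgeR adjusted p = 0.407). Glutamate, GABA and glycine handling genes had 9 above 0 and 5 below with a median of 0.03. Water, potassium and ion balance genes had 10 above and 6 below with a median of 0.00, and 8 above and 8 below without cKO 1. Glycolysis, lactate and glycogen genes had 13 above and 8 below with a median of 0.02. Without cKO 4, WT 2 and WT 3 the glycolysis list turned, with 10 above and 11 below (median -0.01). Among these Slc2a1, the glucose transporter GLUT1 of the blood-brain barrier and astrocytes, was at 86.9 ± 5.34 CPM in cKO and 78.2 ± 5.84 CPM in WT (0.15 ± 0.05; edgeR adjusted p = 0.399).

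Relatives of the members by family likewise gave no call. Of the solute carrier family 1, Slc1a5, a neutral amino acid transporter, was at 3.20 ± 0.213 CPM in cKO and 2.44 ± 0.508 CPM in WT (log2 fold change 0.39 ± 0.12; edgeR adjusted p = 0.356). The neuronal glutamate transporter gene Slc1a1 was at 167 ± 3.55 CPM in cKO and 169 ± 8.02 CPM in WT (-0.02 ± 0.03). Other connexin, pannexin and junction genes had 6 above 0 and 6 below with a median of -0.00. Without cKO 1 they had 5 above and 7 below (median -0.03), and without cKO 4, WT 2 and WT 3 their median was 0.02. Gja4, connexin 37 of arterial endothelium, had a log2 fold change of 0.29 ± 0.12 (edgeR adjusted p = 0.463). Astrocyte and glial transcription factor genes had 9 above and 9 below, and 8 above and 10 below without cKO 4, WT 2 and WT 3. Gli3, an effector of Sonic hedgehog signalling, was at 8.92 ± 0.702 CPM in cKO and 10.1 ± 1.05 CPM in WT (-0.18 ± 0.08, edgeR adjusted p = 0.486). Other S100 genes had 7 above and 3 below with a median of 0.01, and 4 above and 6 below without cKO 1 (median -0.03).

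Most genes of reactive astrocytes had estimates above 0, and none passed. Of 12 pan-reactive genes 10 were above 0 and 2 below, with a median log2 fold change of 0.19, and of 11 tested genes of the A1 class 9 were above 0 and 2 below, with a median of 0.18. Vim, the intermediate filament vimentin, was at 47.8 ± 5.14 CPM in cKO and 38.5 ± 4.50 CPM in WT, with 5 cKO libraries above every WT library (0.31 ± 0.09; edgeR adjusted p = 0.343). In the A1 class Amigo2, Srgn, Fbln5 and Ggta1 had unadjusted p below 0.05 and estimates of 0.23 to 0.38 (3.2% of all genes tested had such a p above 0), with edgeR adjusted p of 0.451 to 0.496. Genes of the A2 class had 5 above 0 and 5 below with a median of 0.03. That A2 median was -0.015 without cKO 1, with 4 above and 6 below, and -0.005 without cKO 4, WT 2 and WT 3. Without cKO 4, WT 2 and WT 3 the medians were 0.11 for pan-reactive and 0.06 for A1 genes, and without cKO 1 they were 0.16 and 0.09. In the first of these settings 8 A1 genes were above 0 and 3 below. In each setting 2 A1 genes had an unadjusted edgeR p below 0.05. Of all genes tested, 1457 of 19591 and 2381 of 19457 had such a p, in the same order.

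Vessels and meninges also express several of these reactive genes, and their markers were set beside them. The 10 smooth muscle and pericyte markers summed to 296 to 366 CPM in cKO and 237 to 277 CPM in WT, without overlap. Of these markers 9 were above 0 and 1 below with a median log2 fold change of 0.39, 7 had unadjusted p below 0.05 with estimates above 0, as did 3.2% of all genes tested, and Acta2, Myl9, Tagln and Cnn1 were higher in all cKO libraries than in every WT library, as were 0.181% of all genes tested. The smallest edgeR adjusted p in that list was 0.115. The list was chosen with earlier results of these data known, so its counts beside all genes are a description. Meningeal fibroblast markers, all 10 above 0 with a median of 0.36, summed to 288 to 526 CPM in cKO and 169 to 504 CPM in WT. Endothelial markers, all 9 above 0 with a median of 0.09, summed to 261 to 306 CPM in cKO and 248 to 274 CPM in WT. The 8 ependymal markers were also all above 0, with a median of 0.32. Without cKO 4, WT 2 and WT 3 the medians were 0.33 for smooth muscle and pericyte, 0.10 for meningeal, 0.04 for endothelial and 0.25 for ependymal markers. In that setting 3 endothelial markers and 1 meningeal marker were below 0. Without cKO 1 the 4 medians were 0.37, 0.26, 0.07 and 0.29, in the same order. The part of these cell types in the values of Vim and the A1 genes was not tested. Oligodendrocyte markers, all 10 below 0 with a median of -0.10, summed to 2716 to 4506 CPM in cKO and 3352 to 5063 CPM in WT, and microglia markers to 346 to 384 CPM in cKO and 362 to 376 CPM in WT. All 10 choroid plexus markers were above 0 (median 0.33), and 8 were above and 2 below without cKO 4, WT 2 and WT 3 (0.09). All 8 dentate granule neuron markers were below 0 (median -0.19), and 1 was above and 7 below in that setting (-0.11). All 8 interneuron markers were above 0 (median 0.04).

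**Figure D5:**
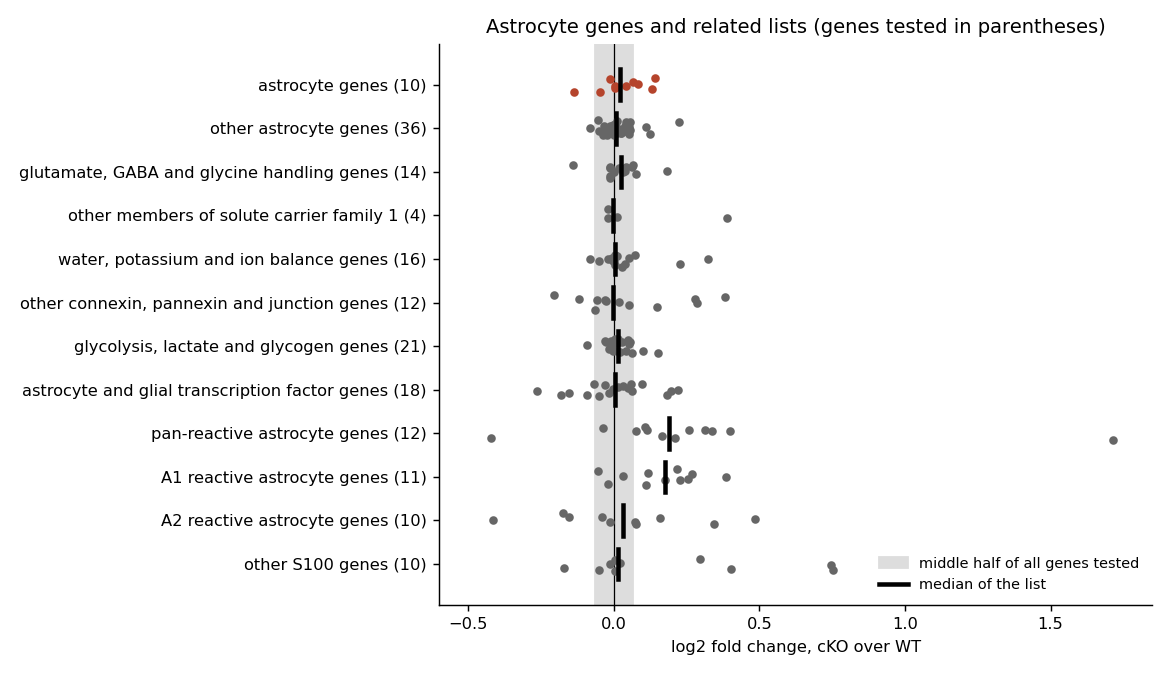
Log2 fold change (cKO over WT) of the 10 astrocyte genes (red) and of 11 related gene lists (grey points, 1 per tested gene, with the number tested in parentheses). Black ticks are list medians and the grey band is the interquartile range of all genes tested. The astrocyte genes have a median of 0.02, and pan-reactive and A1 genes have medians of 0.19 and 0.18. No gene shown passed after adjustment.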

How the data were processed

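RNA sequencing of bulk hippocampus gave 1 library for each of 6 cKO and 6 WT male mice. Polyadenylated RNA from a Trizol extraction went into NEB Next Ultra libraries, per the labels' protocols. The authors deposited estimated counts per gene symbol, made with Salmon 1.3.0 on GRCm38 per the submitters' processing notes, not scaled between libraries. Of the values in a library, 24.8% to 25.9% were not whole, so the estimated counts were rounded to whole numbers. No source used here gives the transcript annotation or the strand setting.

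For the genotype comparison, edgeR (version 4.0.16, under R 4.3.3) was fitted with TMM factors and genotype as the only term, and its quasi-likelihood p-values were adjusted by Benjamini-Hochberg over 19325 genes with a threshold of 0.05. Genes had passed filterByExpr with its minimum count of 10 and minimum total of 15. The test was checked on simulated data. Correlations used log2 CPM (prior count 2) less the genotype mean, with 100000 permutations within genotype, two-sided. Those of single members with marker lists were added after the data were seen. Lengths, places and 3′ UTRs came from GENCODE M21, in which 32940 of the 33250 symbols were found.

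Other tests were DESeq2 1.42.0 and limma-voom (limma 3.58.1). Other settings were scaling by RLE, by upper quartiles or by library totals, other low-count filters, a block for animal number, each library left out, and cKO 4, WT 2 and WT 3 left out together. The members and gene lists were chosen with earlier results of these data known. Named were all 10 members, up to 4 genes with the smallest p of each list, the 10 genes most like the members' mean profile and the 2 most like each member. B830012L14Rik and Mirg were named after their values were seen.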

Additional observations from a re-analysis of the deposited data

Results flagged for a closer look

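Among 84 groups of 6 libraries (members, ratios and summed lists in each genotype), 6 held a library that stood far from the rest by Dixon's gap test at its 95% critical value, and chance gives about 4. Aqp4 was at 92.1 CPM in WT 6, where the other WT libraries were at 109 to 112 CPM. The ratio of Gfap to Aldh1l1 in CPM was 7.31 in WT 2. The glutamate, GABA and glycine handling genes summed to 3514 CPM in cKO 6. The other astrocyte genes summed to 9404 CPM in WT 3. The other connexin, pannexin and junction genes summed to 409.8 CPM in WT 5. Markers of the thalamus, tissue that borders the hippocampus in a dissection, summed to 167 CPM in cKO 5.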

How the results depend on the processing

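No astrocyte gene was called under any of the 21 alternatives to the genotype comparison. Over the transcriptome edgeR called 2 genes, DESeq2 called 76 and limma-voom called 0 (1847 at an unadjusted p below 0.05). No low-count filter gave 1, a filter of at least 1 CPM in 6 libraries gave 1, and leaving out cKO 4, WT 2 and WT 3 gave 0 (1457 unadjusted). With single libraries left out the number ran from 0 to 6, the highest without cKO 1. The labels do not say whether animal numbers pair the samples, and same-number correlations were -0.27 to 0.25. With the animal number as a replicate block 0 genes were called (1724 unadjusted). The log2 fold changes near 0 turned in sign. Leaving out single libraries, Aldh1l1 ran from -0.0335 to 0.0249, Gja1 from -0.0537 to 0.0164, Aldoc from -0.00192 to 0.0584 and S100b from -0.0459 to 0.0189. Without cKO 4, WT 2 and WT 3, Aldh1l1 was at -0.0386 and Gja1 at 0.0237. The causes of these shifts were not tested. Gfap (0.11 to 0.18), Gjb6 (0.10 to 0.15), Aqp4 (0.04 to 0.12), Sox9 (0.02 to 0.13), Slc1a2 (-0.17 to -0.12) and Slc1a3 (-0.08 to -0.03) kept their direction under all 21. Their smallest adjusted p was 0.221, for Slc1a2 without WT 1. Lengths taken from the longest transcript left 4 of 10 members at their rank. No member pair passed under any of the 17 alternatives run for the correlations. Each member had at least 1248 counts per library, and standard errors of the members ran from 0.0460 to 0.0933 on the log2 scale with 6 animals per genotype.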
